A study of Mus musculus with 96 samples.

Results

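The daughter cells of 17 of 48 divisions of horizontal basal cells (HBCs) differed in H3f3b, 1 of the 2 mouse genes that encode the histone variant H3.3. Each H3f3b read count was divided by the summed ERCC reads of its cell, and a pair was selected on this value when the higher sister held at least 1.5 times that of the lower. The 17 pairs are 34 of the 96 cells sequenced, and in 35.4% of pairs (exact Clopper-Pearson 95% interval 22.2% to 50.5%, pairs taken as independent) the cutoff was met. H3f3b chose the pairs, so its values in them are a description without a test.

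HBCs are the reserve stem cells of the olfactory epithelium (OE), which divide after injury to renew themselves and to replace the other cell types. All cells came from wild-type adult mice of 6 to 8 weeks, of both sexes, whose OE was dissected 2 days after an injection of methimazole, a drug that strips the epithelium. HBCs were grown in primary culture, moved from a Tropoelastin to a Fibronectin coating, and both daughters of a filmed division were picked by mouth pipette, so that the cells were dividing outside the tissue. There was no control treatment, and the lower sister of each pair served as the reference for the higher one. The labels name neither mouse nor culture. The H3f3b-high and the H3f3b-low sisters therefore each count as 1 sample, no p-value was computed, and the SDs describe the spread over these pairs only.

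H3.3 is placed into chromatin throughout the cell cycle, by the HIRA complex at active genes and by DAXX-ATRX at repeats and telomeres, whereas the canonical H3 is deposited behind the replication fork by CAF-1. Its transcripts carry poly(A) tails, unlike those of most canonical histones, and are therefore captured by oligo-dT beads. H3f3a and H3f3b encode the same protein from separate loci. H3f3b (ENSMUSG00000016559) lies on the minus strand of chromosome 11 from 116021912 to 116027962 in GRCm38, and H3f3a (ENSMUSG00000060743) on the minus strand of chromosome 1 from 180800832 to 180813943.

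The genes share their protein but differ in the sequence before their starts, among other parts. The 250 bases before the RefSeq start of each (GRCm38.p6, minus strand, chr11:116024505-116024754 and chr1:180813606-180813855) are shown 5′ to 3′. Capitals mark 3 motifs searched on both strands: the CCAAT box, the TATA box as TATAAA, and TGACG, part of the cAMP response element. Both windows lie inside the genes' spans in the deposited annotation, which extend farther upstream.
H3f3b: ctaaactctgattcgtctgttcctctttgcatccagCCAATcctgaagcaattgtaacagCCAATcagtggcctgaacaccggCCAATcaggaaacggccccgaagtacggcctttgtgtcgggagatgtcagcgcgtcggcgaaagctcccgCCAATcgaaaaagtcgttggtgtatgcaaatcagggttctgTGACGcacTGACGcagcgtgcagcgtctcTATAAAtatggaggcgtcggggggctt
H3f3a: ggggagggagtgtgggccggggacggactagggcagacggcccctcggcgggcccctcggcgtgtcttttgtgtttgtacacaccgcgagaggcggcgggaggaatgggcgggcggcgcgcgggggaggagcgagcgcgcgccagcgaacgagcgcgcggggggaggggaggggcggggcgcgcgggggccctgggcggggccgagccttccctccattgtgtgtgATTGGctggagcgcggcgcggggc
The H3f3b window held 4 CCAAT, 1 TATAAA and 2 TGACG, none overlapping another, and was 54% G and C. The H3f3a window held 1 CCAAT, read on the opposite strand, no TATAAA and no TGACG, and was 77.2% G and C. Among 32817 RefSeq windows of the same length, 33.8% held a CCAAT, 12.4% a TATAAA and 17.8% a TGACG, and 0.835% held at least 4 CCAAT. These matches describe the letters of the windows and say nothing of which factors bind there.

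The depth was even. Gene counts summed to 29454150 in the shallowest and 44849003 in the deepest cell, and ERCC reads made up 1.06% to 5.75% of all counts. All 34 cells held reads of Trp63, which encodes p63, and of the basal keratins Krt5 and Krt14. Of 17 markers of other olfactory cell types, 6 had no read in any of the 34 cells, and their summed ERCC-normalized count had a median of 45.6 (0 to 494) in the high and 2.79 (0 to 3034) in the low sisters. Of 8 immune, stromal and endothelial markers, 3 had no read, and the summed count had a median of 28.9 (0 to 4275) in the high and 132 (3.11 to 7763) in the low sisters, the highest sums being nearly all Cd68. Both sisters of a pair belonged to the same of the 12 sets of 8 cells that the deposited names give, and the 17 pairs came from 9 sets with at most 3 pairs each. Pair 47 stood apart from the other pairs. Its H3f3b-high sister held 93.4 gene counts per ERCC count and the low sister 39.3, and values that rest on it are given without it as well.

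In the 17 pairs, H3f3b had a median of 50377 ERCC-normalized read counts (25394 to 143074) in the high sisters and of 30122 (11549 to 48717) in the low sisters. An ERCC-normalized count is the read count multiplied by the mean ERCC total of all cells and divided by the cell's own. The groups overlapped, since the sisters were assigned within pairs: 8 of 17 high sisters lay below the highest low sister. The ratio had a median of 1.78 (1.52 to 3.53). Just inside the cutoff lay pair 35 with 1.52 and pair 22 with 1.53, and just outside pair 20 with 1.46 and pair 4 with 1.41. The first-numbered daughter was the higher one in 10 pairs and the second-numbered one in 7.

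Relative to the 62 cells of the other 31 pairs, whose H3f3b counts had a median of 43018 (13377 to 73329), 10 of 17 high sisters were above that median and 3 of 17 low sisters were. Pairs 47, 44 and 9 reached 143074, 114685 and 82030 ERCC-normalized counts in their high sisters, above every cell of the other pairs. When H3f3b was divided by total gene counts, only the high sister of pair 44 stayed above every such cell. Those of pairs 47 and 9 then lay below the high sister of pair 1, which missed the cutoff. The high sister of pair 47 had the lowest ERCC total of all cells, 410953. Its raw H3f3b count was 49796, against 50829 in the low sister of pair 44. Within the 17 pairs the lowest ERCC-normalized counts were those of the low sisters of pair 46, 11549, and of pair 36, 13556. The lowest of the other cells had 13377.

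ERCC transcripts measured part of the technical spread. Each was divided by its cell's summed ERCC reads, so differences in spike-in amount cancel for them but stay in gene ratios. Of 6 ERCC transcripts whose mean count was within 2-fold of that of H3f3b, the same cutoff was met in 0 to 10 of 48 pairs. Of all 21 with 10 or more counts in every cell, it was met in 0 to 29. Genes, for which this comparison is not like for like, often reached it. The 225 tested genes with a mean count within 2-fold of that of H3f3b met it in a median of 15 pairs (4 to 36), and all tested genes in a median of 34. The 17 pairs of H3f3b lay well within the range of genes of like abundance. The ERCC reads were lower in the H3f3b-high sister in 14 of 17 pairs, which by itself raises every ERCC-scaled value of that cell. When H3f3b was instead divided by the total gene counts of the cell, the same sister was the higher one in 17 of 17 pairs, with a median ratio of 1.59 (1.18 to 2.93), and 10 of the 17 pairs stayed at or above 1.5. Pair 47 had 1.49 on this scale. The part of the ERCC totals in the selection was otherwise not tested.

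**Figure D1:**
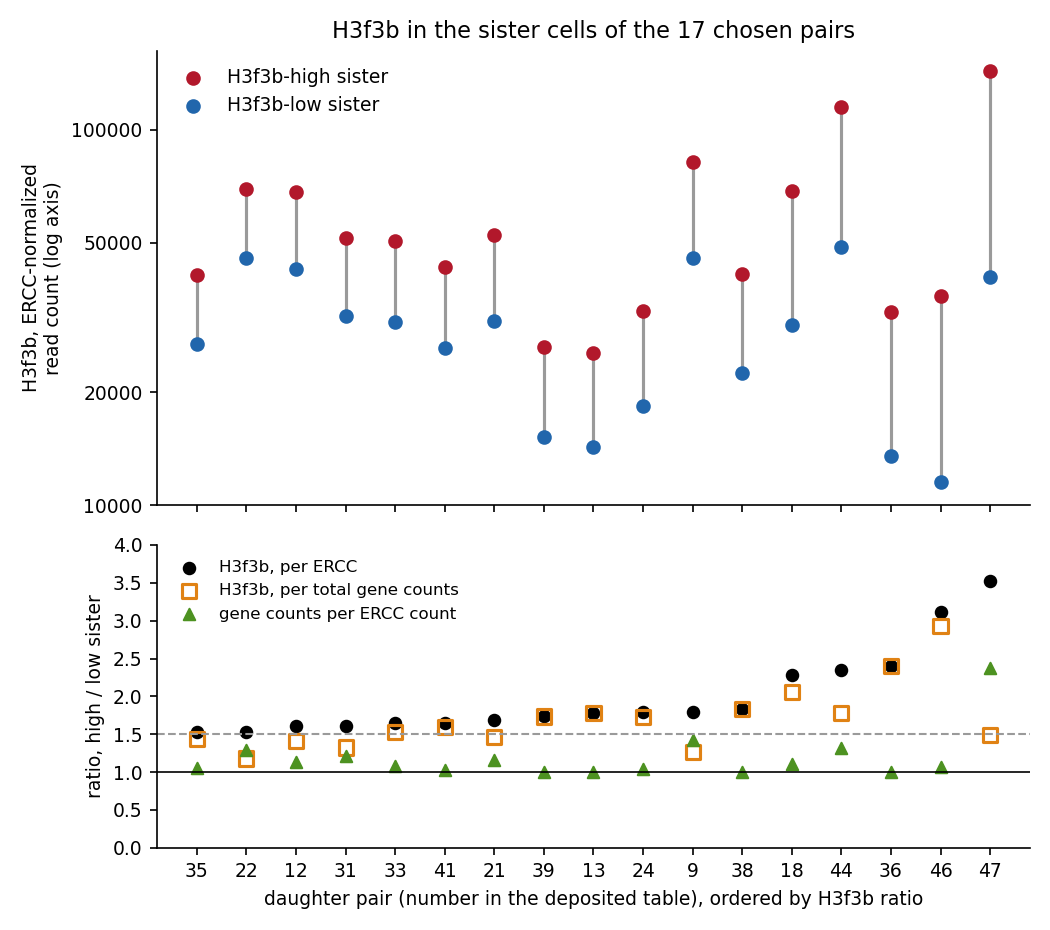
Upper panel, ERCC-normalized H3f3b read count (log axis) of both sisters of each of the 17 chosen pairs, joined by a line and ordered by ratio. Lower panel, the ratio of high to low sister for H3f3b per ERCC count (black), H3f3b per total gene counts (open squares) and all gene counts per ERCC count (triangles), with the cutoff of 1.5 dashed; pair 47 has the largest ratio, 3.53, and also the largest ratio of gene counts, 2.37.

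RNA content, taken as gene counts per ERCC count, was slightly higher in the H3f3b-high sister. It had a median of 34.2 (20.9 to 93.4) in the high and 30.8 (20.9 to 45.7) in the low sisters. Pair 47 apart, the high sisters reached 49.0, so that the groups overlapped widely. Within pairs, the high sister held more RNA in 15 of 17, by a median log2 ratio of 0.11 ± 0.31 (SD, n = 17 pairs), and without pair 47 of 0.10. Of the other 31 pairs, the sister with more H3f3b held more RNA in 18, by a median of 1.04-fold. Both ratios share each cell's ERCC total. The number of genes detected did not follow H3f3b, since it was higher in the high sister in 9 of 17 pairs and lower in 8 (median 13006 and 12823 genes). The share of counts on mitochondrially encoded genes had a median of 1.64% in the high and 1.80% in the low sisters, and was lower in the high sister in 11 of 17 pairs.

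The second H3.3 gene took no part in the selection, so its ratio in these pairs is not comparable in size with that of H3f3b. Per length, H3f3b was the more abundant in 96 of 96 cells, at 911 ± 318 TPM against 241 ± 67.0 TPM for H3f3a (SD, n = 96 cells). H3f3a had a median of 15730 ERCC-normalized counts (8933 to 40136) in the H3f3b-high and of 14251 (5891 to 15891) in the H3f3b-low sisters. The groups overlapped, with high sisters both above and within the range of the low ones. The median log2 ratio of H3f3a was 0.35 ± 0.66 (SD, n = 17 pairs), smaller than its spread, with the H3f3b-high sister the higher in 13 of 17 pairs, and was 0.33 without pair 47. Per total gene counts it was 0.16, with 12 of 17 pairs. In the other 31 pairs the H3f3a median was 0.08, with 18 of 31 pairs in the direction of H3f3b.

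At the same cutoff of 1.5, H3f3a differed in 16 of the 48 pairs, and 8 pairs met it for both genes, 47.1% of the H3f3b pairs and 50% of the H3f3a pairs. In 6 of these 8 the same sister was higher in both. In pairs 36 and 41 the genes went opposite ways, with H3f3a ratios of 0.64 and 0.60, while pairs 22 and 47 had H3f3a ratios of 3.14 and 2.37. For an H3.3 sum, the TPM of the 2 genes were added and divided by the summed ERCC TPM of the cell. Its ratio had a median of 1.64 (1.36 to 3.02), and 14 of 17 pairs were at or above 1.5. H3f3b made up a median of 82.5% of this H3.3 sum in the high sisters (72.0% to 88.3%) and 76.7% in the low sisters (52.4% to 88.9%). Since H3f3b is most of the sum and chose the pairs, the sum's ratio and the larger H3f3b share follow largely from the selection.

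**Figure D2:**
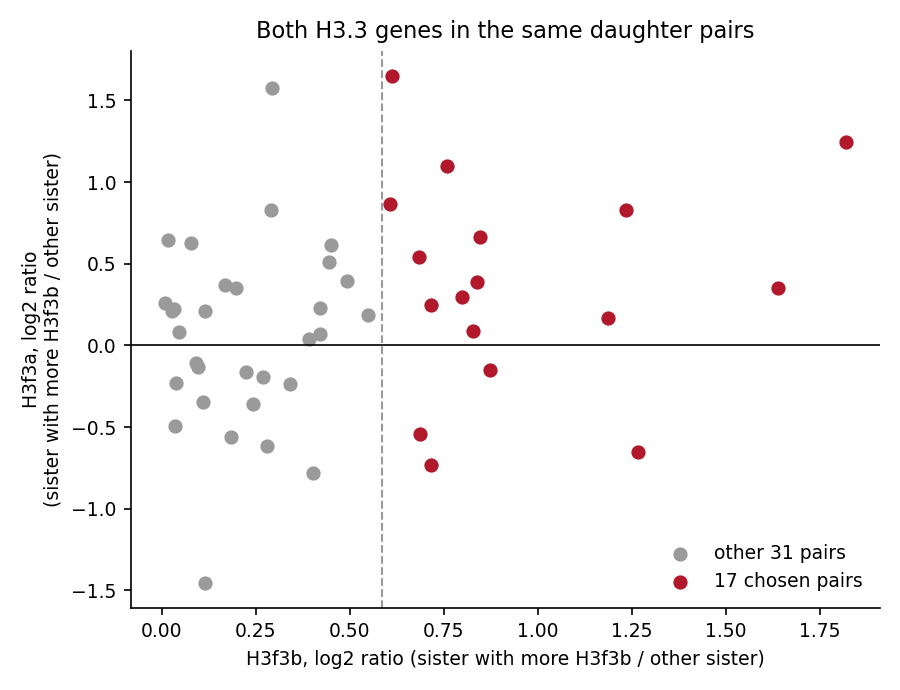
Log2 ratio of H3f3a (vertical axis) against that of H3f3b (horizontal axis), both ERCC-normalized, sister with more H3f3b over its sister, for the 17 chosen pairs (red) and the other 31 (grey), with the cutoff dashed. In the chosen pairs 13 points lie above 0 for H3f3a and 4 below.

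Loci that closely resemble the H3.3 genes held few reads, and how reads were split among them is uncertain. The retrogene H3f3c had a median of 174 counts in the high and 123 in the low sisters, and the pseudogenes H3f3a-ps1 and H3f3a-ps2 had medians of 37.7 and 56.2 in the high and of 30.9 and 49.1 in the low sisters. None met the rule for a call described next.

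All 14463 genes that reached 10 counts in 10% of cells were compared within the 17 pairs. A gene was called higher in the H3f3b-high sister when its median ratio, log2 with a pseudocount of 1, reached 1.5-fold and at least 14 of 17 pairs went that way, and lower by the mirror rule. Scaled by ERCC, 181 genes including H3f3b itself were called higher, 1.25% of those tested, and 14 lower, 0.0968%. Scaled by total gene counts, 47 were called higher, 0.325%, again with H3f3b, and 38 lower, 0.263%. The median log2 ratio over all genes was 0.07 on the ERCC scale and 0 per total gene counts. On these scales 54.2% and 40.3% of all genes had a median above 0 and 20.3% and 34.1% below, the rest being at 0. Genes with a mean count between 1000 and 10000 had a median of 0.26 on the ERCC scale and 0.04 per total gene counts, against which the gene lists described here are to be read. The rule for a call sets no error rate, so a called gene is not shown to differ beyond the spread between pairs. At these shares most short lists hold no call, so the absence of a call there is not read as a result. The 47 and the 14 genes were all called on both scales.

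Most calls came from genes of middling counts, where the spread between pairs was wide. Among 8162 genes with a mean count under 1000 the median SD of the log2 ratio was 4.31, among 5707 genes between 1000 and 10000 it was 2.38, and among 594 genes of 10000 or more it was 0.68. On the ERCC scale 9 of these 594 abundant genes were called higher and none lower, and per total gene counts 1, H3f3b. No gene called higher in the 17 pairs was called in the other 31, where 25 pairs are needed and 6 genes were called higher. Of the 181 genes, 118 had a median above 0 in the other pairs and 60 below, while of all genes tested 41.1% were above 0 there and 30.1% below. Of the 14 lower genes, 3 were below 0 in the other pairs and 8 above.

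**Figure D3:**
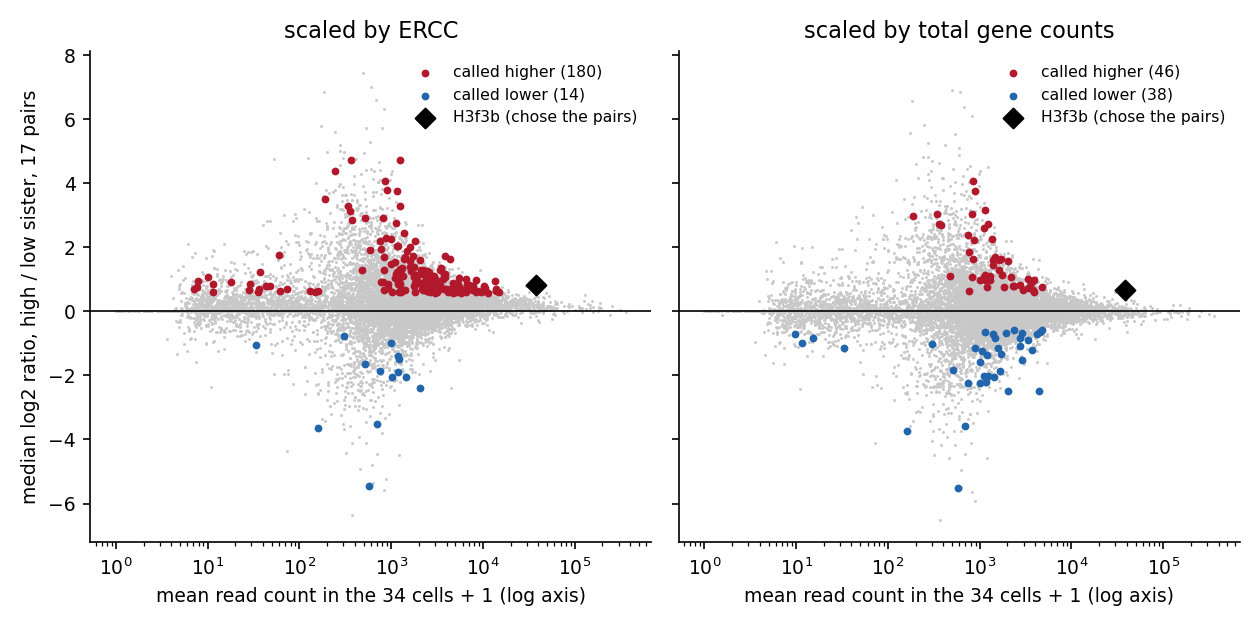
Median log2 ratio of the H3f3b-high over the H3f3b-low sister in 17 pairs (vertical axis) against the mean read count plus 1 in the 34 cells (log axis), for 14463 genes scaled by ERCC (left) or by total gene counts (right). Red and blue points are genes called higher and lower, the diamond is H3f3b, and 129 of the 181 genes called higher on the ERCC scale lie between 1000 and 10000 counts.

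The other 8 abundant genes called higher, named here after their values were seen, encode factors of DNA replication, chromatin, RNA binding, protein folding and membrane traffic. Supt16, a subunit of the histone chaperone FACT, had a median of 14311 counts (4701 to 32964) in the high and 7505 (3763 to 14863) in the low sisters, with a log2 ratio of 0.79 ± 0.69 and 15 of 17 pairs higher. Per total gene counts the value was 0.57, just under the fold of a call, again with 15 of 17 pairs. Its median in the other 31 pairs was 0.02. Uhrf1, which guides maintenance DNA methylation, had 0.96 ± 1.56, the translation initiation factor Eif4b 0.63 ± 0.55 with 16 of 17 pairs, clathrin heavy chain Cltc 0.72 ± 0.90, the splicing regulator Hnrnpf 0.64 ± 0.69, and the Hsp110-family chaperone Hspa4l 0.71 ± 0.88. Mcm5, a subunit of the replicative helicase, had 0.59 ± 3.26 and Top2a, topoisomerase II alpha, 0.60 ± 2.06. The SD was below the median ratio for Supt16 and Eif4b and above it for the other 6. None of these 8 was called per total gene counts.

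Genes of the H3.3 deposition machinery were not called on either scale. Of 7 members, 6 had a median above 0 on the ERCC scale, and their median log2 ratio was 0.32, near the 0.26 of genes of 1000 to 10000 counts, and 0.09 per total gene counts. Ubn1, a HIRA-complex subunit, had a median of 1722 counts (9.37 to 7019) in the high and 465 (0 to 3291) in the low sisters, with a log2 ratio of 1.96 ± 4.04 and 13 of 17 pairs higher, 1 short of a call. Among the other 31 pairs it stood at -0.33. Asf1a, which hands H3.3-H4 to HIRA, had 1.42 ± 4.85 with 12 of 17 pairs, and Hira itself -0.24 ± 5.73 with 8 of 17. Cabin1 had 0.83, Ubn2 0.32, and the alternative chaperone subunits Daxx 0.18 and Atrx 0.05.

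Among 10 replication-coupled histone chaperones, 2 were called higher on the ERCC scale, against 1.25% of all genes, and none per total gene counts. These were Supt16 and Rbbp4, a histone-binding subunit of CAF-1, which had 8293 counts (1268 to 16943) in the high and 5829 (1099 to 9318) in the low sisters and a log2 ratio of 0.60 ± 1.15. Nasp, a chaperone of free H3-H4, had 0.61 ± 0.96 with 13 of 17 pairs, Asf1b 1.20 ± 2.39 with 11, and the CAF-1 subunits Chaf1b 0.54 and Chaf1a 0.26. Rbbp7 had 0.28, Mcm2 0.21, Npm1 0.17 and Ssrp1, the partner of Supt16 in FACT, -0.12 with 8 of 17 pairs. The summed counts of the list were higher in the high sister in 15 of 17 pairs on the ERCC scale, by a median log2 ratio of 0.34 ± 0.39, but in 10 of 17 per total gene counts, with 0.06.

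Other histone genes showed no call. Of 9 variants with poly(A) transcripts, H2az1, which encodes H2A.Z, was the most abundant, with 75260 counts (44698 to 166879) in the high and 56771 (20826 to 102552) in the low sisters. Its log2 ratio was 0.25 ± 0.58, with 15 of 17 pairs higher on the ERCC scale and 12 of 17 per total gene counts. H1f0, a linker histone of non-dividing cells, had 0.99 ± 2.33, the second H2A.Z gene H2az2 0.64 ± 2.16 and the centromeric Cenpa 0.35 ± 2.19. Macroh2a1 had 0.23, H2ax -0.04, Macroh2a2 -0.15 and H2aj -0.26, and H1f10 had fewer than 10 counts in 11 high and 11 low sisters. None of 53 tested replication-dependent histone genes of the clusters was called, and their median was 0.35 on the ERCC scale and 0.01 per total gene counts. Their summed counts had a log2 ratio of 0.57 ± 0.68 on the ERCC scale, with 13 of 17 pairs higher. Per total gene counts the sum had 0.48 ± 0.73, with 11 of 17 pairs. In the other 31 pairs these medians were -0.03 and 0.19. Few transcripts of these cluster genes carry a poly(A) tail, and near-identical copies such as Hist1h2ao and Hist1h2ap, with 0.37 and 0.38, may share reads.

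The H3K9 methyltransferases and HP1 proteins, which build heterochromatin, had a median log2 ratio of 0.55 on the ERCC scale and 0.31 per total gene counts, and none of the 9 was called. All 9 were above 0 on the ERCC scale, where 54.2% of all genes were above and 20.3% below. Per total gene counts 8 were, against 40.3% of all genes above and 34.1% below. Genes of 1000 to 10000 counts had medians of 0.26 and 0.04 on these scales. Suv39h1 had 2974 counts (9.67 to 8590) in the high and 1262 (16.2 to 5176) in the low sisters, a log2 ratio of 0.81 ± 3.19, with 11 of 17 pairs higher and 9 of 17 per total gene counts. Suv39h2 had 1.35, Setdb1 0.98, Ehmt1 0.80, Trim28 0.55, Ehmt2 0.50, and the HP1 genes Cbx1, Cbx3 and Cbx5 had 0.48, 0.43 and 0.31. Their SDs ran from 0.66 for Cbx3 to 5.01 for Ehmt2, above the median of every one of them. For the other 31 pairs the list's median was 0.12.

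Genes of the transcription machinery were near the median of genes of 1000 to 10000 counts. Of 14 genes for RNA polymerase II subunits and its elongation kinase, Polr2h alone was called higher on the ERCC scale, with 0.90 and 14 of 17 pairs. Of all genes 1.25% were called higher on that scale. None of the 14 was called per total gene counts. Polr2h had 2421 counts (441 to 11128) in the high and 1074 (58.0 to 5027) in the low sisters. The abundant Polr2e had 0.39 ± 0.96, Polr2b 0.30 and Polr2c 0.09. The list's median was 0.21, and -0.01 per total gene counts. Genes of 1000 to 10000 counts had 0.26 and 0.04, and all genes 0.07 and 0.

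**Figure D4:**
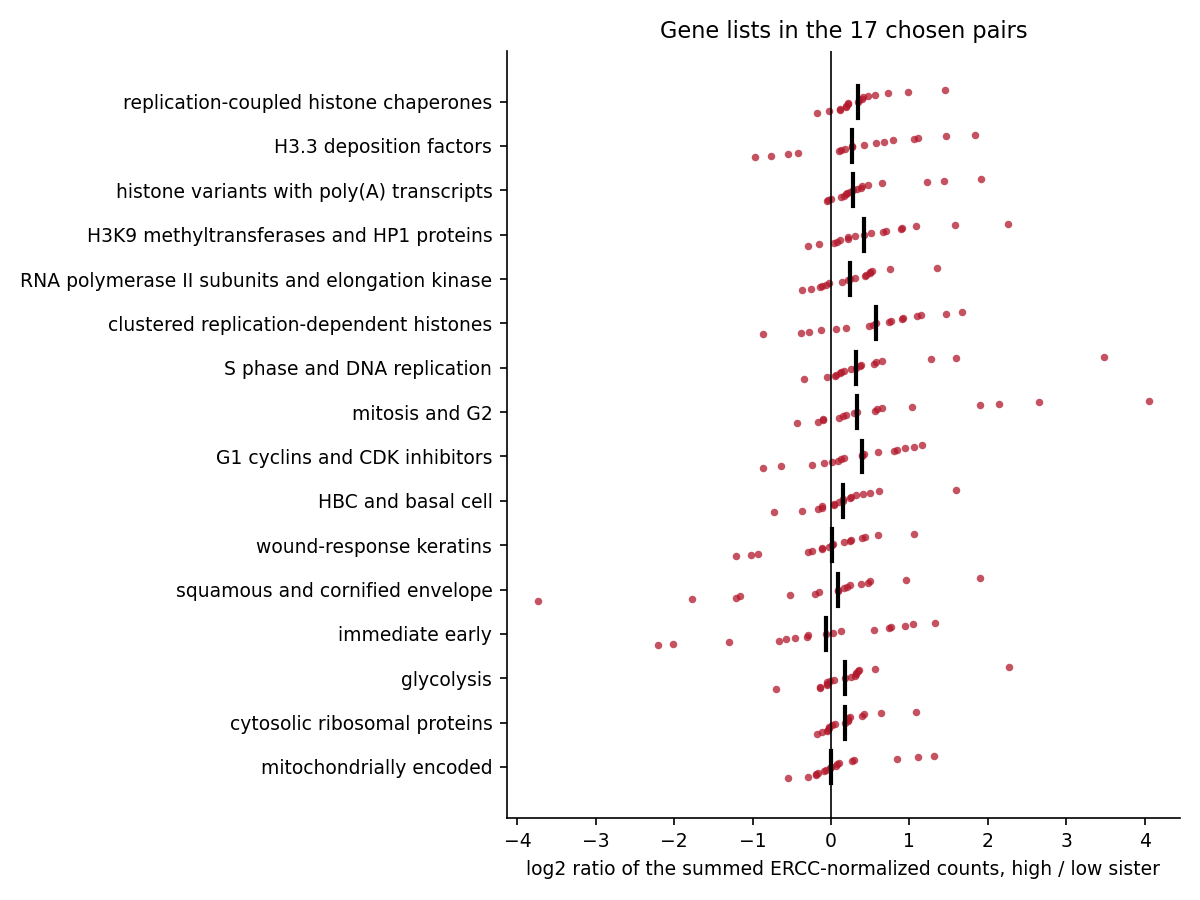
Log2 ratio of the summed ERCC-normalized counts of 16 gene lists, H3f3b-high over H3f3b-low sister, with a point for each of the 17 chosen pairs and a black bar at the median. The medians lie between -0.06 for immediate early genes and 0.57 for clustered histones, and the points of every list fall on both sides of 0.

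Proliferation genes leaned towards the H3f3b-high sister. Of 28 mitosis and G2 genes, 26 had a median above 0 on the ERCC scale, where 54.2% of all genes were above and 20.3% below. Per total gene counts 23 did, against 40.3% of all genes above and 34.1% below. The list's median log2 ratios were 0.68 and 0.48, against 0.26 and 0.04 for genes of 1000 to 10000 counts. Against 1.25% of all genes on the ERCC scale, 3 of the 28 were called higher. These were Anln, an actin-binding protein of the cleavage furrow, with 1.00 ± 2.66, the kinetochore gene Cenpf with 1.18 ± 3.37, and Top2a. Cenpf alone was also called per total gene counts, with 0.98, and had 4741 counts (8.27 to 32255) in the high and 2087 (15.4 to 8492) in the low sisters. Mki67, which encodes Ki67, had 21609 (3689 to 109001) and 16296 (99.7 to 40977), with 0.53 ± 2.64 and 9 of 17 pairs. Of the other abundant members, the importin Kpna2 had 0.11 and Cdc20, an activator of the anaphase-promoting complex, 1.03, neither of them called.

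The summed mitosis and G2 counts were at least 1.5 times higher in the H3f3b-high sister in 7 of 17 pairs and at least 1.5 times lower in 0. Across the other 31 pairs the sister with more ERCC-normalized H3f3b was the higher at this cutoff in 10 and the lower in 2. Per total gene counts, however, that sister had more H3f3b in 17 of the 31 pairs and less in 14. The direction of H3f3b in those pairs thus depended on the scale. The median log2 ratio of the sum was 0.34 ± 1.20 in the chosen pairs and 0.29 in the others, and 0.19 and 0.17 per total gene counts. For 17 S phase genes the corresponding pairs were 4 and 0 of 17, and 10 and 2 of 31, with medians of 0.32 and 0.26, and of 0.11 and 0.13 per total gene counts. Mcm5 and Uhrf1 were the 2 of 17 S phase genes called higher on the ERCC scale, against 1.25% of all genes. No S phase gene was called per total gene counts. Of the most abundant members, Rrm1 and Rrm2, the ribonucleotide reductase subunits, had 0.47 and 0.45, and the helicase subunit Mcm3 -0.03.

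Basal cell genes went both ways. Trp63 had a median of 10601 counts (65.4 to 26761) in the H3f3b-high and of 8378 (854 to 30586) in the H3f3b-low sisters. Its median log2 ratio was -0.18 ± 2.47, with 7 pairs higher and 10 lower, and -0.17 per total gene counts. At the 1.5 cutoff Trp63 was higher with H3f3b in 6 pairs and against it in 7. Krt14 had 163867 (45146 to 838529) in the high and 132489 (61165 to 286900) in the low sisters, with 0.34 ± 0.80 and 13 of 17 pairs, and Krt5 had 0.18 ± 0.64 with 10 of 17. Per total gene counts these values were 0.20 and -0.01. At the cutoff Krt14 was higher with H3f3b in 3 pairs and against it in 1. None of the 12 HBC and basal cell genes was called, and the hemidesmosome integrins Itga6 and Itgb4 had -0.37 and 0.00.

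Wound-response keratins, which mark activated epithelium, lay near 0 on the ERCC scale, with 2 of 5 medians above and 3 below, while per total gene counts all 5 were below 0, with a median of -0.21 and the summed counts lower in 11 of 17 pairs. Krt6a had 136105 counts (29288 to 603006) in the high and 160762 (13210 to 512795) in the low sisters, with -0.01 ± 0.92, Krt17 had 0.02 ± 0.56 and Krt6b 0.04 ± 1.00. Krt16 had -0.00 ± 2.64, being higher with H3f3b at the cutoff in 5 pairs and against it in 8, and Krt23 -0.66 ± 2.58. Of 16 tested genes of squamous differentiation none was called, and Sprr1a, a cornified envelope precursor, lay farthest from 0 at -1.52 ± 3.02 with 13 of 17 pairs lower. The highly similar Sprr2a1 and Sprr2a2, among which reads may be shared, both had 0.10.

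The study lists 8 genes with differentiation and 8 with self-renewal in relation to H3.3, chosen on these cells and therefore no independent evidence of a direction. None was called on either scale. Of the differentiation list 6 genes were tested, with a median log2 ratio of 0.53 on the ERCC scale and 0.35 per total gene counts. Genes of 1000 to 10000 counts had 0.26 and 0.04. On both scales 4 of them were above 0 and 1 below. The self-renewal list had medians of -0.16 and -0.22, with 5 and 6 of 8 genes below 0 and the others above. The study's H3.3 pairs were those asymmetric in either H3f3a or H3f3b, an unlike set. At the same cutoff the study counts fewer of them than the 17 found here for H3f3b alone, and the reason was not tested. Of the first group, Kdm1a had 0.85 ± 2.57 with 11 of 17 pairs, Cdc20 1.03 ± 2.99 with 11 and Yap1 0.53 ± 3.63 with 10. Mki67, a proliferation gene like Cdc20, had 0.53. The wound keratin Krt16 had -0.00, and Sox9 0.00 ± 4.80 with 8 higher and 7 lower. Ascl3 had no read in the 34 cells and Il33 at most 11 normalized counts. Of the second, Fzd7 had 0.70 ± 3.93, Myc -0.14 ± 3.70, Icam1 -0.64 ± 5.11 and Trp53inp1 -0.70 ± 5.28.

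Immediate early genes, which respond within minutes to growth factors and handling, had no stable direction, with a median log2 ratio of 0.15 on the ERCC scale and of -0.30 per total gene counts. None of the 16 was called on the ERCC scale and 1, Egr1, was called lower per total gene counts, where 0.263% of all genes were. Nr4a1, also induced by growth signals but not among these 16, was called higher on both scales and is described with the leading genes. Egr1 had 617 counts (0 to 21265) in the high and 2860 (13.7 to 28322) in the low sisters. Per total gene counts its value was -2.49 and 14 of 17 pairs, and not on the ERCC scale, where 11 of 17 pairs were lower, with -2.38 ± 4.09. Fos had 0.19 ± 3.60, Jun 0.12 ± 3.49 and the abundant Ier3 0.35 with 9 of 17 pairs.

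The largest median ratios belonged to genes with many cells near 0. Plod1, a lysyl hydroxylase of collagen on chromosome 4 from 147909753 to 147936767, had a median of 831 counts (3.52 to 5746) in the H3f3b-high and of 9.78 (0 to 2873) in the H3f3b-low sisters. It had fewer than 10 reads in 3 high and 8 low sisters. Its log2 ratio was 4.07 ± 4.66, with 16 of 17 pairs higher on both scales. The other 31 pairs had -2.32, with 10 pairs higher and 21 lower. Such ratios depend on the pseudocount and are no lower bounds of a fold.

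Srbd1, which encodes an RNA-binding domain protein, was the only one of the 10 leading higher genes with at least 10 reads in every high sister. It had 1544 counts (200 to 3092) in the high and 93.1 (0 to 2374) in the low sisters, a log2 ratio of 3.79 ± 3.16 with 16 of 17 pairs, and 1.10 in the other 31 pairs with 22 higher. The stress chaperone Hspa1a had 1028 counts (7.08 to 5048) in the high and 37.4 (0 to 9556) in the low sisters, with 4.73 ± 5.34 and 14 of 17 pairs. It lost its call per total gene counts with 13 of 17 pairs, may share reads with its near-identical copy Hspa1b, and stood at -0.81 in the other pairs. Nr4a1, an orphan nuclear receptor induced by growth signals, had 1204 (6.37 to 8237) and 16.5 (0 to 1581), with 14 of 17 pairs higher on both scales, in 4 of which the low sister had no read and in 2 of these 4 the high sister had 5.

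The other 6 of the 10 leading higher genes on the ERCC scale were Znrd1, an RNA polymerase I subunit, with 4.73, Ccdc18 with 4.40, the glycosyltransferase Mgat3 with 3.76, Ier5l with 3.50, the phosphatase-targeting Ppp1r9b with 3.15 and the small GTPase Arl4a with 15 of 17 pairs higher. Their SDs ran from 3.55 to 5.41. Znrd1 and Ccdc18 were not called per total gene counts, where Deaf1, a transcription factor, Dennd4a and the amino acid transporter Slc7a5 took their place and that of Hspa1a, with 3.05, 2.69 and 2.60. In the other 31 pairs, 5 of the 10 ERCC-scale genes had a median above 0.

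Of the genes called lower, Spry4, an inhibitor of receptor tyrosine kinase signalling, lay farthest from 0. It had 5.84 counts (0 to 1921) in the H3f3b-high and 486 (7.20 to 3093) in the H3f3b-low sisters, and fewer than 10 reads in 11 high and 2 low sisters. Its log2 ratio was -5.45 ± 5.08 with 14 of 17 pairs lower, and -2.02 in the other 31 pairs with 19 lower. Slc25a15, the mitochondrial ornithine carrier, had 18.0 (0 to 2764) and 901 (8.92 to 3960), with -3.53 ± 5.18 and 0.00 in the other pairs. Acd, the shelterin subunit TPP1, had 662 (0 to 3054) and 2949 (6.47 to 7078), with -2.39 ± 4.80 and 14 of 17 pairs lower on the ERCC scale and 16 of 17 per total gene counts, and 0.24 in the other pairs.

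The remaining 7 leading lower genes ran from -2.05 for the retinol dehydrogenase Rdh12 to -1.38 for Ncdn, with Smcr8 at -2.04, the decoy TRAIL receptor Tnfrsf23 at -1.90, Tspyl2 at -1.86, Ankrd39 at -1.64 and the mismatch repair gene Msh3 at -1.47. All 10 were also called lower per total gene counts. Egr1 and the BH3-only gene Pmaip1, with -2.49 and -2.03, ranked among the 10 lowest on that scale without a call on the ERCC scale. In the other 31 pairs, 2 of the 10 ERCC-scale genes, Spry4 and Ncdn, had a median below 0.

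**Figure D5:**
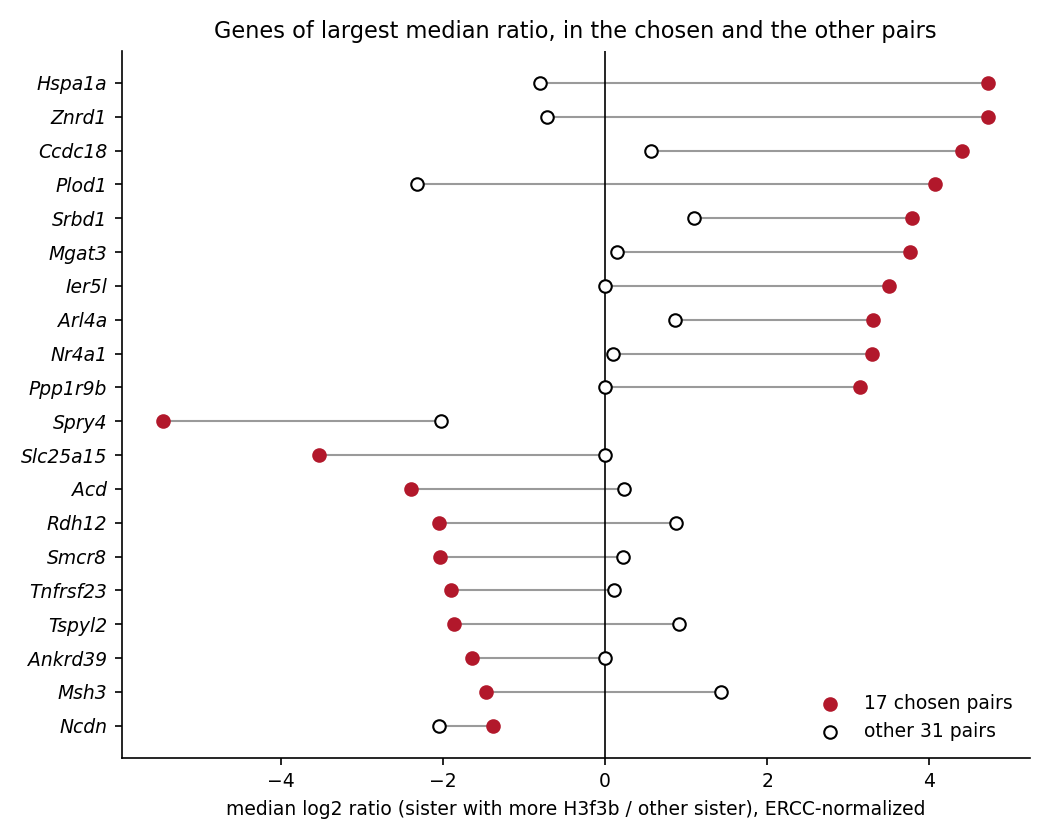
Median log2 ratio, sister with more H3f3b over its sister, ERCC-normalized, of the 10 genes called higher and the 10 called lower with the largest medians, in the 17 chosen pairs (red) and the other 31 pairs (open). Open points lie on both sides of 0, as for Plod1 with 4.07 and -2.32.

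Over all 48 pairs, the genes whose sister ratio followed that of H3f3b most closely were ranked by Spearman correlation among 9028 genes, as a description, since ratios on the ERCC scale share the ERCC totals of both cells. Nxt1, a cofactor of mRNA export, came first on both scales, with rho = 0.67 on the ERCC scale and 0.61 per total gene counts. In the 17 pairs it had 3891 counts (1242 to 8968) in the high and 1742 (649 to 3678) in the low sisters. Its log2 ratio was 0.98 ± 1.04 with 16 of 17 pairs higher, and 0.17 in the other 31 pairs with 19 higher. It was called on both scales and had at least 10 reads in all 34 cells.

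H2az1, Pnkd, the stress granule protein G3bp1 and Tmcc1 followed on the ERCC scale with rho from 0.60 to 0.61, where the median over genes was 0.10 and the 95th percentile 0.35. Per total gene counts, Ccdc18, Pnkd, the MAP kinase phosphatase Dusp4 and the pseudogene Hmgb1-ps2 followed Nxt1 with 0.48 to 0.52. H3f3a had a rho of 0.30 and 0.13 on these scales. The lowest values on the ERCC scale belonged to Retsat, Slc25a25, Zkscan8, Zfp384 and Ncdn, from -0.43 to -0.39, and per total gene counts to Vcl, which encodes the focal adhesion protein vinculin, with -0.53, and to Tcf12, Prr14, Gpc4 and Prss23. Vcl had 4501 counts (743 to 12570) in the high and 6229 (802 to 14113) in the low sisters, with -0.55 ± 0.99 and 12 of 17 pairs lower.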

How the data were processed

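Transcriptomes of 96 single daughter cells of cultured HBCs were read out by G&T-seq, which parts the RNA of a cell from its DNA, with ERCC RNA added. The authors trimmed reads with Trimmomatic 0.39, aligned pairs with STAR 2.7.11a to GRCm38 (with Ensembl annotation and ERCC sequences) and deposited StringTie 2.2.1 read counts per gene and cell, without normalization or molecular identifiers, and TPM per gene, scaled over genes and ERCC transcripts. The interval on the share of pairs takes the 48 pairs as independent. It covers neither pairs that may share a mouse or culture nor error in each ratio. Library totals were between 29454150 and 44849003 gene counts.

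Counts were divided by the summed ERCC counts of the cell and multiplied by the mean ERCC total, or, as a second scale, divided by total gene counts. Log2 ratios between sisters used a pseudocount of 1. TPM served to compare levels between genes, for the H3.3 sum (divided by the cell's summed ERCC TPM) and as an alternative scale. The 14463 genes that reached 10 counts in 10% of cells were compared in Python 3.11.15 (numpy 2.4.6, scipy 1.17.1, pandas 2.3.3, figures with matplotlib 3.10.9). No p-values were computed, because mouse and culture are not given. Genes named were every member of lists of 10 or fewer, called and up to 4 abundant members of longer lists, the 10 called genes of largest median in each direction and scale (mean count of 100 or more, 10 counts in at least 50% of the 34 cells, no model names), and the 5 of highest and lowest correlation. Other examples and members of longer lists that are not called were picked after values were seen. The members and lists were chosen with earlier results of these data known. The alternatives tried were other scalings, cutoffs, filters, pseudocounts and leaving out each pair.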

Additional observations from a re-analysis of the deposited data

How the results depend on the processing

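A ratio of 2 in place of 1.5 left 5 of 48 pairs, and the other scalings gave 12 to 15 pairs. The counts of genes called higher and lower moved most. They were 47 and 38 per total gene counts with the same pairs, 61 and 43 with pairs chosen again on that scale, 37 and 39 with median-of-ratios factors over genes, 65 and 36 with TPM, and 408 and 41 with ERCC median-of-ratios factors, where 15 pairs were chosen. They were 2805 and 679 in the 5 pairs with a ratio of 2 or more, where fewer pairs have to agree, 1 and 0 over all 48 pairs, and 2882 and 890 with no minimum share of pairs. A gene fold of 2 left 76 higher.

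Leaving out each pair in turn, where 13 of 16 pairs suffice, gave 194 to 295 genes higher and 17 to 28 lower. Without pair 12, 13, 18, 24, 33, 35, 36, 39 or 41, 273 to 295 genes were higher, and without pair 12, 13, 22, 41, 44 or 47, 22 to 28 were lower. Without pair 47, examined after its values were seen, 194 were higher and 28 lower. Small list medians turned sign. Per total gene counts this held for immediate early genes (0.15 to -0.30), glycolysis (0.18 to -0.02), ribosomal proteins (0.17 to -0.02), RNA polymerase II (0.21 to -0.01), mitochondrially encoded genes (0.12 to -0.03) and nuclear noncoding RNAs (0.23 to -0.02). Over all 48 pairs, and likewise in the 31 other pairs alone, it held for immediate early genes (-0.13), noncoding RNAs (-0.04) and the self-renewal list (-0.16 to 0.02). With ERCC median-of-ratios factors it held for immediate early genes (-0.15), wound keratins (-0.00 to 0.05) and immune and stromal markers (-0.03 to 1.33). The median over all genes (0.04 to 0.12), of H3f3a (0.33 to 0.37) and of RNA content (0.10 to 0.13) moved by less than their SD over pairs. No paired analysis with a replicate block was possible because the labels form 1 group of cells, whose pairing is already the comparison. Genes under 1000 counts, with a median SD of 4.31 on the log2 scale, limit what 17 pairs can resolve.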

Other observations

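Genes of metabolism and housekeeping were close between the sisters. Of 80 tested ribosomal protein genes, 73 had a median above 0 on the ERCC scale but 33 per total gene counts, and the median log2 ratios were 0.17 and -0.02, with none called. Their summed counts had a median log2 ratio of 0.18 ± 0.32 (SD, n = 17 pairs) on the ERCC scale and -0.03 ± 0.17 per total gene counts. Among 15 glycolysis genes, whose median was 0.18 and -0.02, Eno1 had 213889 ERCC-normalized counts in the high and 181525 in the low sisters, with 0.25 ± 0.74 and 14 of 17 pairs higher, and 11 of 17 per total gene counts. Mitochondrially encoded genes had a median of 0.12 and -0.03, and mt-Co1, the most abundant, -0.10 ± 0.51.

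Genes of G1 control had a median of 0.17 on the ERCC scale and 0.00 per total gene counts, with none of 9 called. Cyclin D1, Ccnd1, had 51399 counts (16018 to 127507) in the high and 33413 (13612 to 86842) in the low sisters, with 0.29 ± 1.16 and 10 of 17 pairs. The CDK inhibitor Cdkn1a had 0.57 ± 1.60 with 12 of 17 pairs, and Ccnd2 0.41 ± 0.68 with 11. Of the nuclear noncoding RNAs, Malat1 had -0.02 ± 1.08 and Neat1 0.47 ± 1.81, and per total gene counts -0.25 and 0.22.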
